A study of Mus musculus with 36 samples.

Results

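Microglia, the resident macrophages of the brain, sense their surroundings through a small set of surface receptors that signal through shared membrane adaptors. The 10 genes described here are such receptors and adaptors: Tyrobp, Fcer1g, Trem2, Siglech, Fcgr3, Csf1r, P2ry12, Cx3cr1, Gpr34 and Tmem119. They were found by their position among 25460 genes, to which the transcript rows of the 36 deposited tables were assigned by locus, and the FPKM (fragments mapped to a transcript, scaled to its length in kilobases and to the library's mapped fragments) of all transcripts of a gene were summed. Of the 25460 genes, 13578 reached 1 FPKM in at least 2 libraries, and all 10 genes were among them. The genes were chosen because they were high in population B and low in populations D and E. Differences of B, D and E from other populations are therefore given as a description, with no test.

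The study measured RNA in 18 groups of 2 libraries each. A group is a cell population, called Neg or by a letter from A to E, taken from cortex, brainstem or olfactory bulb, which gives 6 populations in each of 3 regions. All libraries came from C57/Bl6 mouse brain, untreated as far as the labels say, and all carried the label astrocyte, while the series text speaks of cell lines; neither gives an age, a transgene, a clone or the number of animals pooled. The labels do not say which surface antigens define the letters, what Neg stands for, or whether 2 libraries with the same group are different animals, and every p-value below measures only the spread between these libraries.

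In the textbook account, Tyrobp (also called DAP12) and Fcer1g (the common gamma chain of Fc receptors) have almost no extracellular part and carry an immunoreceptor tyrosine-based activation motif (ITAM). Receptors with short tails, among them Trem2, Siglech and Fcgr3, pair with them, and the phosphorylated motif recruits the kinase Syk. Csf1r is a receptor tyrosine kinase, and P2ry12, Cx3cr1 and Gpr34 are G protein-coupled receptors. Csf1r signalling is needed for microglial survival, and Tmem119 is a membrane protein used as a microglial marker.

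Depth and library content differed, and these differences touch the results on Neg and E. Deposited coverage divided by FPKM, a ratio that follows the number of mapped fragments, was 0.0695 in brainstem E replicate 1 and 0.315 in olfactory bulb E replicate 1, against 1.16 to 4.08 in the other 34 libraries. For transcripts near 10 FPKM the deposited interval reached 63.0% and 35.2% of the value to each side in those libraries, against 10.1% to 16.5% elsewhere. Between 2104 and 10357 genes reached 1 FPKM, and 8 libraries had fewer than 5000 such genes: cortex Neg replicate 2, both brainstem Neg, cortex A replicate 2, cortex D replicate 2, olfactory bulb E replicate 1 and both brainstem E. The libraries labelled brainstem D replicate 2 and cortex E replicate 2 stood at 2.55 and 2.01 on the mean log2(FPKM + 1) of 223 genes that were higher in the olfactory bulb in Neg, A and C, where the other 11 brainstem libraries lay between 0.132 and 1.14 and the other 11 cortex libraries between 0.283 and 1.00. Without these 2 libraries the median difference of the 10 genes between B and the mean of A, C, D and E was 3.11 on the log2 scale, against 3.24 with them; the corresponding medians of D and E were -1.24 and -1.48, against -1.32 and -1.74.

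Population B carried the 10 genes at levels between 2.51 and 250 FPKM in each of its 6 libraries. Tyrobp, Fcer1g and Csf1r were its most abundant members, with means of 112 ± 29.4, 123 ± 23.4 and 135 ± 63.5 FPKM (SD, n = 6). Gpr34 was the least abundant, at 10.4 ± 8.40 FPKM (SD, n = 6). In these bulk libraries, fewer cells of a type and less RNA per cell cannot be told apart. The sum of the 10 genes ran from 399 to 785 FPKM in B (median 562), from 77.7 to 298 in C (median 172), from 49.2 to 136 in A (median 73.1), from 18.3 to 122 in Neg (median 73.7), from 11.5 to 98.3 in D (median 29.5) and from 5.19 to 50.4 in E (median 21.3). The lowest B library lay above the highest library of any other population on this sum, while the ranges of Neg, A and C overlapped each other, as did those of D and E. The range of D also overlapped those of Neg, A and C, and the range of E those of Neg and A.

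**Figure D1:**
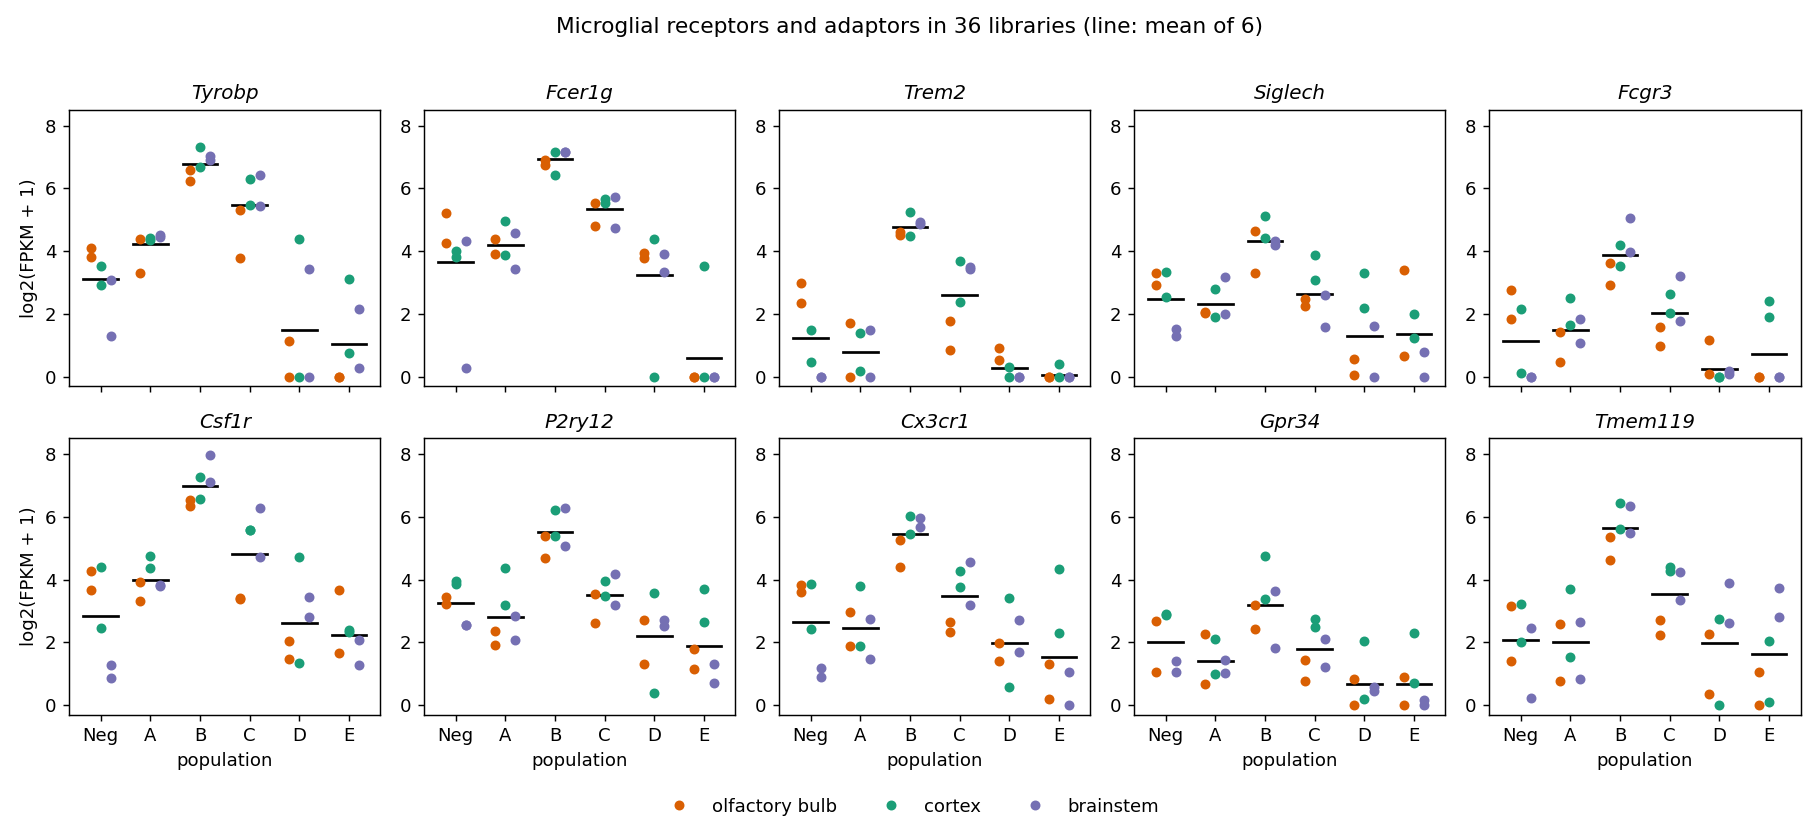
Level of each of the 10 genes as log2(FPKM + 1) in the 36 libraries, by population on the x axis; points are libraries coloured by region and the line is the mean of 6 libraries. B is the highest population mean in all 10 panels, and Trem2 is listed at 0 in 5 of the 6 E libraries.

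The adaptor Tyrobp was measured at 74.1 to 158 FPKM in B, with a median of 110. In C it ran from 12.7 to 85.8 (median 43.0), in A from 8.93 to 22.0 (median 20.1) and in Neg from 1.47 to 16.0 (median 8.99). In D it was listed at 0 in 3 libraries and reached 20.1 in cortex D replicate 1 (median 0.608), and in E it was listed at 0 in 2 libraries and reached 7.68 (median 0.444). The order of the population means was B, C, A, Neg, D, E; C overlapped A, A overlapped Neg, D overlapped C, A and Neg, and E overlapped Neg and D. A was the evenest of the lower populations, with 5 of its 6 libraries between 19.5 and 22.0 FPKM.

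Fcer1g, the other adaptor, ran from 85.5 to 143 FPKM in B (median 131) and from 25.7 to 51.5 in C (median 45.3). Neg, A and D were close in their medians, at 16.7, 16.9 and 13.5 FPKM. In E it was listed at 0 in 5 libraries and stood at 10.4 in the library labelled cortex E replicate 2, one of the libraries with olfactory bulb genes. Fcer1g therefore kept a measurable level in 5 of 6 D libraries (8.99 to 19.8 FPKM), in 3 of which Tyrobp stood at 1.22 FPKM or less. The ratio of Fcer1g to Tyrobp was between 0.849 and 1.62 in the 6 B libraries, so the adaptors were within a narrow range of each other there.

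Trem2, the lipid and lipoprotein receptor that pairs with Tyrobp, was measured in B at 22.0 and 23.3 FPKM in the olfactory bulb, 37.3 and 21.3 in the cortex, and 28.2 and 29.4 in the brainstem. In C the values were 2.39 and 0.807 in the olfactory bulb, 11.8 and 4.19 in the cortex, and 9.69 and 10.4 in the brainstem. In Neg they were 4.05 and 6.99, then 0.392 and 1.83, and in the brainstem both were listed at 0. The B values of Trem2 lay above all others, and C and Neg stood in opposite order between the olfactory bulb and the brainstem. It was at 2.30 FPKM or less in A, 0.872 or less in D and 0.314 or less in E. Compared with its adaptor, Trem2 stood at a median of 0.236 of the Tyrobp level in B (0.135 to 0.370), 0.109 in C (0.0618 to 0.227), 0.157 in Neg (0 to 0.438) and 0.0448 in A (0 to 0.116). The range of B lay above that of A and overlapped those of C and Neg.

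Siglech, a sialic acid-binding lectin that also uses Tyrobp, had a flatter distribution. It ran from 8.91 to 34.1 FPKM in B (median 19.7), 1.48 to 9.01 in Neg (median 5.68), 1.98 to 13.6 in C (median 4.84), 2.72 to 8.10 in A (median 3.15), 0 to 8.97 in D (median 1.28) and 0 to 9.55 in E (median 1.04). Its lowest B library, olfactory bulb B replicate 2 at 8.91 FPKM, lay below single libraries of Neg, C, D and E. In cortex D replicate 2, where 5 of the 10 genes were listed at 0, Siglech alone made up 78.1% of the summed level.

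Fcgr3, an activating receptor for immunoglobulin G that pairs with Fcer1g, ran from 6.58 to 32.3 FPKM in B (median 12.9) and from 0.963 to 8.26 in C (median 2.78). It was listed at 0 in 2 Neg, 2 D and 4 E libraries, and cortex E replicates 1 and 2 held the E values above 0, at 4.34 and 2.70 FPKM. In D it was at 0.136 FPKM or less in 5 libraries and at 1.27 in olfactory bulb D replicate 2. The B values of Fcgr3 lay above all D values, while C and Neg overlapped. Its reads may be shared with its paralogs on the same chromosome: Fcgr2b ran from 4.09 to 19.7 FPKM in B and Fcgr4 from 0 to 0.187, both looked up after the values of Fcgr3 were seen.

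Csf1r, the receptor for the growth factors Csf1 and Il34, was measured in B at 80.4 and 92.0 FPKM in the olfactory bulb, 94.0 and 153 in the cortex, and 137 and 250 in the brainstem. The value of 250 in brainstem B replicate 2 held 176 FPKM of another transcript model whose median over the B libraries was 0. C ran from 9.35 to 76.0 FPKM (median 36.1), A from 9.01 to 25.7 (median 13.6) and Neg from 0.826 to 20.1 (median 8.17). D and E had medians of 4.53 and 3.59, and Csf1r was above 0 in all 36 libraries. In C the olfactory bulb libraries (9.35 and 9.73 FPKM) lay far below those of the cortex (46.8 and 47.1) and brainstem (25.4 and 76.0).

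P2ry12, the ADP receptor that guides microglial processes, ran from 25.0 to 77.1 FPKM in B (median 40.8). The medians of C (10.5), Neg (9.17), A (5.23) and D (5.12) followed closely on each other with overlapping ranges, and E had 1.96. Cx3cr1, the receptor of the neuronal chemokine Cx3cl1, ran from 20.4 to 64.0 FPKM in B (median 46.8), and its medians elsewhere were 10.3 in C, 7.82 in Neg, 4.23 in A, 2.60 in D and 1.27 in E. In cortex E replicate 1 Cx3cr1 stood at 19.1 and P2ry12 at 11.98 FPKM, the highest E values of both. The ratio of Cx3cr1 to P2ry12 was 0.802 to 1.53 in B, and the pair was also the most alike of all pairs over the 36 libraries.

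Gpr34, a lysophosphatidylserine receptor, ran from 2.51 to 26.2 FPKM in B (median 8.84), 1.08 to 6.47 in Neg (median 3.54), 0.696 to 5.76 in C (median 2.51) and 0.599 to 3.78 in A (median 1.36). It was the only member with Neg in the second place of the population means, and brainstem B replicate 2, at 2.51 FPKM, lay below brainstem C replicate 2 at 3.32. Tmem119 ran from 24.0 to 85.9 FPKM in B (median 45.9) and from 3.75 to 20.3 in C (median 13.6). Its means in D, Neg and A were 4.77, 4.27 and 4.26 FPKM, and in E it stood at 12.4 FPKM in brainstem E replicate 2, where it made up 74.2% of the summed level of the 10 genes.

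Since the 10 genes were high in the same libraries, the bases before their start sites were searched for the core of the site of PU.1, the myeloid transcription factor encoded by Spi1. RefSeq start sites on GRCm38.p6 were matched for 6 of the 10 genes (Cx3cr1, Fcer1g, Fcgr3, P2ry12, Siglech and Trem2), and 150 bases upstream of each were read on both strands. Csf1r, Gpr34, Tmem119 and Tyrobp were not matched. The core GAGGAA was found before 2 of the 6 genes, Fcgr3 and Trem2, against 14.5% of 32851 RefSeq windows of the same length. The Ets site AGGAAG, which shares 5 bases with that core, was found before 4 (Fcer1g, Fcgr3, P2ry12 and Trem2), against 19.7% of windows. The longer site GAGGAAGT, the composite site of PU.1 with interferon regulatory factors and the box TATAAA were found before none of the 6 and in 1.63%, 1.34% and 7.57% of all windows. The 6 genes were counted by gene and the background by window, so a gene with more windows, such as Fcgr3, had more chances of a match. A match describes the letters and is no evidence of binding. The RefSeq start of Fcgr3 lies inside the GENCODE span of that gene, so its window does too, and each sequence is printed only where it lies outside annotated exons. The 3 windows show where the letters lie in Trem2, Fcgr3 and Fcer1g, with capitals marking GAGGAA and AGGAAG together or, in Fcer1g, AGGAAG alone. In Trem2 and Fcgr3 the capitals read as the opposite strand of GAGGAAG.
Trem2, chr17:48346251-48346400, plus strand: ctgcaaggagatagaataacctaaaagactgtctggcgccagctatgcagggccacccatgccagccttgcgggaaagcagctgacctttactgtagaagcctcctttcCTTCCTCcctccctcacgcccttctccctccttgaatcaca
Fcgr3, chr1:171059404-171059553, minus strand: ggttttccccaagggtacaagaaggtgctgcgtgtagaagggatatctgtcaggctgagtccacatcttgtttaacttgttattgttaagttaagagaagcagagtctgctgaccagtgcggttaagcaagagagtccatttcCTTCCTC
Fcer1g, chr1:171234366-171234499, minus strand: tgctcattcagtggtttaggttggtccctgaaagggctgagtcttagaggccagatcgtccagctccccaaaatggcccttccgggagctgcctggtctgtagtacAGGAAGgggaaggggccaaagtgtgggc

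Some of these genes share ground with others on the genome, and the library chemistry does not record the strand. P2ry12 (3:59216272-59262871, minus strand) lies within Med12l and Gpr34 (X:13632089-13640858, plus strand) within Cask, each on the opposite strand, per GENCODE vM21 on GRCm38. Med12l ran from 1.22 to 3.65 FPKM in B and Cask from 3.00 to 16.4 in B and 0 to 10.6 in E. For Gpr34 the reads of both genes could be mixed at the size of the values given where their transcripts overlap, which was not tested. The annotated span of Cx3cr1 (9:119901616-120069879, minus strand) crosses Wdr48, and Csf1r (18:61100598-61132149, plus strand) ends over Hmgxb3, at 0 to 9.01 and 0.448 to 3.00 FPKM in B. The transcript models summed here do not reach these genes. That of Cx3cr1 starts at 120048683, beyond the end of Wdr48 at 119926587. Those of Csf1r end by 61131139, before Hmgxb3 starts at 61131277. The other members are Trem2 (17:48346401-48354147, plus strand), Tyrobp (7:30413760-30417585, plus strand), Fcer1g (1:171229572-171234365, minus strand), Fcgr3 (1:171051174-171064935, minus strand), Siglech (7:55768178-55778925, plus strand) and Tmem119 (5:113793729-113800516, minus strand). All 10 are protein-coding genes.

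Within each region B had the highest mean for all 10 genes. In the olfactory bulb both B libraries lay above the other 10 libraries for 8 of 10 genes, all but Gpr34 and Siglech, where 7.62% of all tested genes did so. In the cortex this held for 10 of 10 (9.65% of tested genes) and in the brainstem for 9 of 10, all but Gpr34 (5.54%). The B mean was 1.94 to 6.62 times the next population mean in the olfactory bulb, 2.13 to 4.05 times in the cortex and 1.93 to 4.54 times in the brainstem. Over all regions, the lowest B library exceeded the highest D or E library for 8 of 10 genes (1.7% of tested genes) and every library of every other population for 5: Trem2, Csf1r, P2ry12, Tmem119 and Fcer1g (0.552%). The same 5 exceeded every A, C, D and E library (0.582%). The lowest C library exceeded the highest E library for Trem2, Tyrobp and Fcer1g (16.2%), and the lowest A library did so for Tyrobp (2.45%). These counts restate the pattern by which the genes were chosen.

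The lower end of the gradient was less regular than the upper. D and E held the 2 lowest means for 8 of 10 genes in the olfactory bulb, 4 in the cortex and 3 in the brainstem. The brainstem count includes Trem2, where Neg, D and E were all listed at 0, so its order there is a tie. Without the libraries labelled brainstem D replicate 2 and cortex E replicate 2 the counts were 8, 4 and 2, with this tie not counted. In the brainstem the low place was often taken by Neg, whose 2 libraries had Trem2 and Fcgr3 at 0 and Csf1r at 1.45 and 0.826 FPKM. Averaged over regions and as a median over the 10 genes, D lay below the mean of A, B, C and E by a log2 difference of -1.32, from -2.89 for Tyrobp to -1.03 for Fcer1g, where the median of all tested genes was -0.085. E lay below the mean of A, B, C and D by -1.74, from -4.33 for Fcer1g to -1.09 for Gpr34, against -0.66 for all tested genes. B lay above the mean of A, C, D and E by 3.24, from 2.06 for Gpr34 to 3.84 for Trem2, against 0.35 for all tested genes. The genes were chosen as high in B and low in D and E, so the choice sets the sign of the B, D and E medians alike. The means set against D and E also include B. Without the 8 libraries of fewer than 5000 genes the medians were 2.72 for B, -1.18 for D and -1.44 for E, over olfactory bulb and cortex only, since no brainstem E library is left. The title numbers fall in 2 ranges, and the labels do not say what these stand for. The higher range holds all D and E libraries, cortex A replicate 2, brainstem A replicate 2 and brainstem B replicate 2. With the range as a covariate the medians were 2.76, -1.14 and -1.40. No D or E library lies in the lower range, so these D and E medians do not separate population from range. The B median is set against a mean that includes D and E, so it does not fully separate them either.

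**Figure D2:**
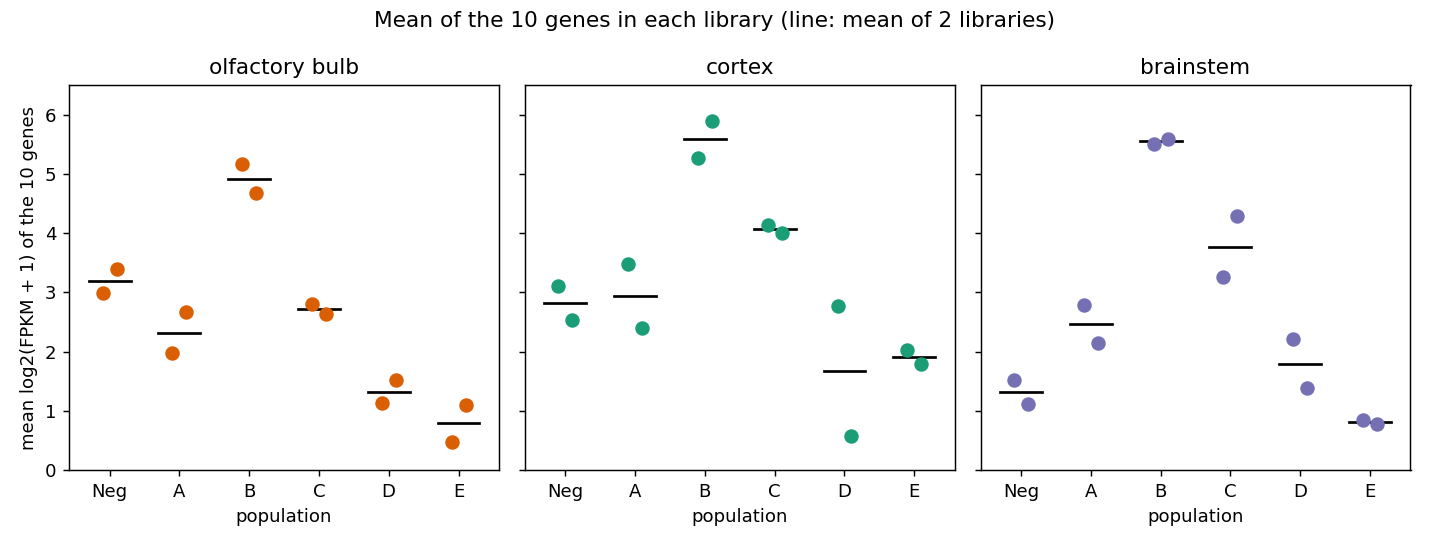
Mean log2(FPKM + 1) of the 10 genes in each library, 1 panel per region, populations on the x axis; points are the 2 libraries of a group and the line is their mean. B lies between 4.67 and 5.90 in all regions, while Neg is second in the olfactory bulb and C in the cortex and brainstem.

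The share of each gene in the summed level varied least for Tyrobp and most for Gpr34 among the B libraries, relative to its own size. Tyrobp made up 16.4% to 20.6% of the summed level in B, Fcer1g 17.5% to 30.1%, Csf1r 17.3% to 31.9%, Tmem119 5.63% to 12.6%, P2ry12 5.20% to 9.81%, Cx3cr1 5.11% to 8.81%, Trem2 2.75% to 7.61%, Siglech 2.23% to 5.16%, Fcgr3 1.65% to 4.12% and Gpr34 0.319% to 3.37%. C overlapped B for each of the 10 shares, with Tyrobp at 16.3% to 33.2% and Fcer1g at 17.3% to 39.2%. In D and E the composition differed from library to library, and single genes dominated where the sum was small: Fcer1g made up 57.1% in olfactory bulb D replicate 1.

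**Figure D3:**
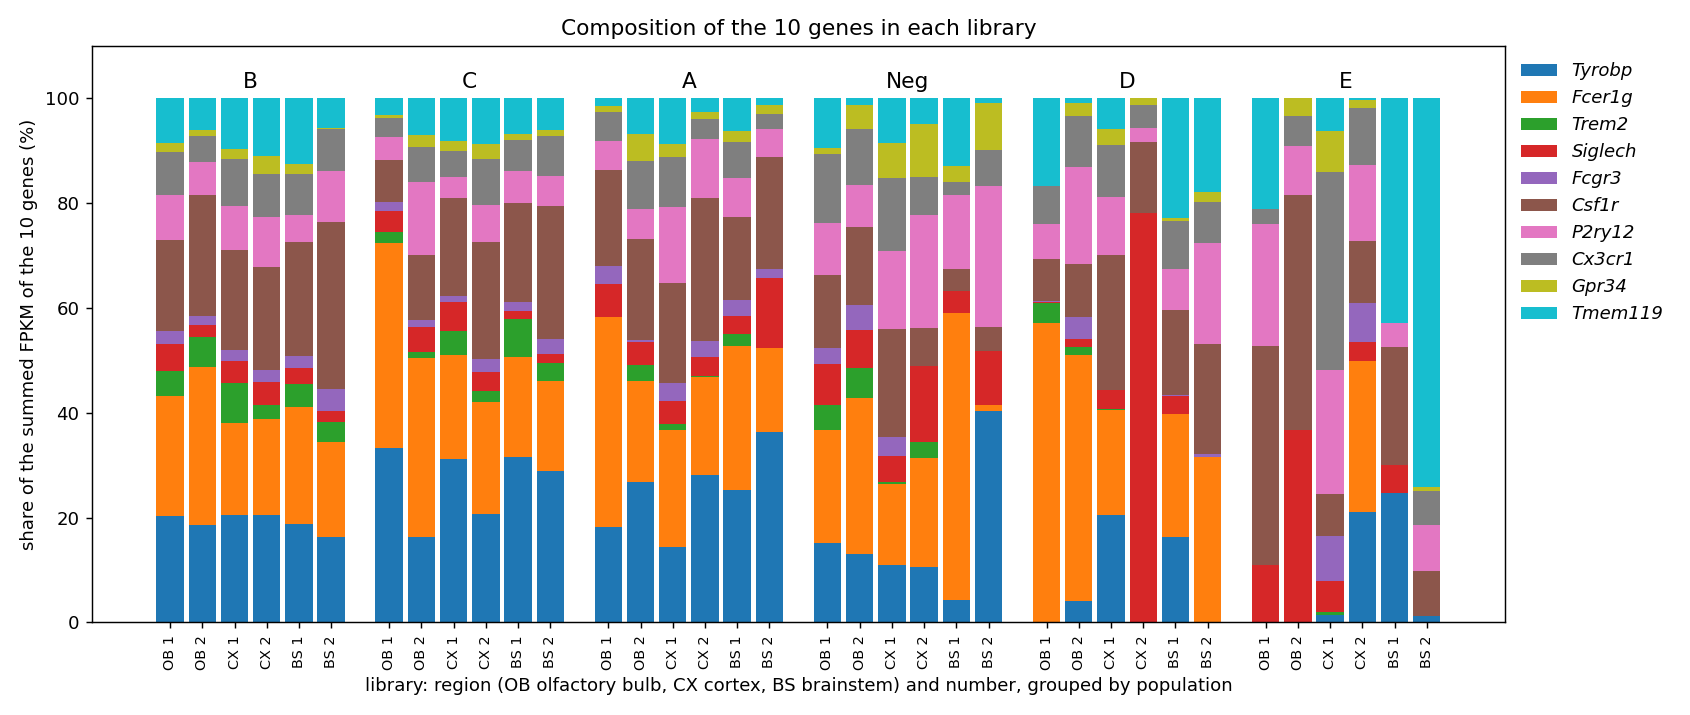
Share of each of the 10 genes in their summed FPKM (y axis, percent) in each of the 36 libraries, grouped by population in the order B, C, A, Neg, D, E. Tyrobp, Fcer1g and Csf1r are the largest parts of the B bars, while in D and E single genes take up to 78.1% (Siglech) and 74.2% (Tmem119).

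Across the 36 libraries the pairwise Pearson correlation of log2(FPKM + 1) ran from 0.512 for Tmem119 with Siglech to 0.934 for P2ry12 with Cx3cr1, with a median of 0.776 over 45 pairs. Over the 30 libraries that are not B the median was 0.608, and over the 6 B libraries it was 0.489, from -0.473 for Trem2 with Fcer1g to 0.949 for Tyrobp with Cx3cr1. The libraries share depth and content, and B was part of the choice of genes, so these values describe the libraries only. Cx3cr1 and Csf1r followed the mean of the other 9 genes most closely (0.933 each over 36 libraries), and Siglech (0.756) and Tmem119 (0.784) least, falling to 0.522 and 0.527 outside B.

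Outside the 10 genes, the 8 protein-coding genes most like their mean over 36 libraries, of 8875 with a mean of at least 1 FPKM, included Havcr2 (r = 0.935), Mpeg1 (0.932), Laptm5 (0.931), Nckap1l (0.929), Lcp1 (0.919) and C1qb (0.914). Over the 30 libraries that are not B the first 8 included Laptm5 (0.878), Mpeg1 (0.869), C1qb (0.856), Nckap1l (0.855), Havcr2 (0.851) and Ctss (0.851). Havcr2 is the checkpoint receptor TIM-3, Mpeg1 a pore-forming protein of macrophages, and Nckap1l and Lcp1 are actin regulators of blood cells.

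Whether the level within B depended on region was tested with limma on log2(FPKM + 1), with 1 mean for each of the 18 groups and Benjamini-Hochberg adjustment over 13578 genes. The B levels entered the choice of genes, and a choice of genes high in B in each region could favour even levels. An absence of calls is therefore no evidence of equal levels. None of the 10 genes passed for cortex minus olfactory bulb, where 0.265% of all tested genes passed, for brainstem minus olfactory bulb (0.825%) or for brainstem minus cortex (0.228%), and none had an unadjusted p under 0.05. For cortex minus olfactory bulb 9 of 10 differences were positive, with a median of 0.68 against 0 for all tested genes. The largest was Gpr34, at 1.25 ± 0.77 (SE), with a 95% interval of -0.33 to 2.83 and an adjusted p of 0.989. For brainstem minus olfactory bulb the median was 0.60 against -0.34 for all tested genes, and the largest difference was Fcgr3 at 1.24 ± 0.68 (SE, interval -0.16 to 2.63, adjusted p = 0.451). Brainstem minus cortex had its largest difference in Gpr34, at -1.35 ± 0.77 (SE, interval -2.94 to 0.23, adjusted p = 0.561). Intervals of this width do not exclude differences of several fold. Their width comes from the spread between libraries within all 18 groups, not within B alone. In simulated data for cortex minus olfactory bulb, 18.5% of 200 genes changed by 2 on the log2 scale were recovered.

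The choice of genes named B, D and E, but high and low there are relative to Neg, A and C too. It was also made with earlier results of these data known. Over Neg, A and C together, none of the 10 genes passed between regions by limma. The background was 2.51% for cortex minus olfactory bulb, 4.13% for brainstem minus olfactory bulb and 0.751% for brainstem minus cortex, and 1, 0 and 2 of the 10 had an unadjusted p under 0.05. P2ry12 was the first of these, at 0.95 ± 0.46 (SE, adjusted p = 0.338) for cortex minus olfactory bulb. For brainstem minus cortex all 10 differences were negative, with a median of -0.89 against -0.03 for all tested genes; Csf1r stood at -1.06 ± 0.49 (SE, adjusted p = 0.770) and Gpr34 at -0.98 ± 0.45 (SE, adjusted p = 0.742). Both brainstem Neg libraries had few genes at 1 FPKM, 2875 and 2104, and their part in this difference was not tested. Without the 8 libraries of fewer than 5000 genes, which leaves A and C in this comparison, Csf1r stood at -0.51 and Gpr34 at -0.93.

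C carried more of 5 genes than Neg when the regions were averaged. Tyrobp was higher in C by 2.34 ± 0.62 on the log2 scale (SE, limma adjusted p = 0.00506), Csf1r by 2.00 ± 0.49 (adjusted p = 0.00292), Fcer1g by 1.67 ± 0.64 (adjusted p = 0.0372), Tmem119 by 1.46 ± 0.58 (adjusted p = 0.0429) and Trem2 by 1.38 ± 0.38 (adjusted p = 0.00646). The other 5 did not pass: Fcgr3 at 0.89 ± 0.39 (adjusted p = 0.0702), Cx3cr1 at 0.83 ± 0.50, P2ry12 at 0.22 ± 0.46, Siglech at 0.16 ± 0.45 and Gpr34 at -0.20 ± 0.45 (SE). In this comparison 40.7% of all tested genes passed and 40.5% passed as higher in C, so 5 of 10 is near the share over all genes, and the median of the 10 was 1.13 against 0.82 for all. The Neg libraries had 2104 to 7465 genes at 1 FPKM and the C libraries 8706 to 9978. The calls ended when the libraries were rescaled to 1 FPKM sum (0 of 10 higher, median of all genes 0.715), under quantile normalization (0 higher and P2ry12 and Gpr34 lower, median of all genes 0.048) and without the 8 libraries of fewer than 5000 genes (0 of 10, Tyrobp 1.48, Csf1r 0.31). That last setting holds no brainstem Neg library, so its C minus Neg and A minus Neg are averages over olfactory bulb and cortex only. Leaving out brainstem Neg replicate 2 alone brought Fcer1g to 1.00 (adjusted p = 0.203), and 3 of the 10 genes then passed. Of 46 other settings, the call was lost in 15 for Tmem119, 14 for Fcer1g, and 3 each for Tyrobp, Csf1r and Trem2.

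The libraries of C and Neg were also set side by side within each region. In the olfactory bulb both C libraries lay below both Neg libraries for 5 genes (Trem2, Csf1r, Cx3cr1, Fcgr3 and Siglech, where 7.54% of tested genes did so) and above them for none (42.5%). In the cortex they lay above for Trem2, Tyrobp, Csf1r, Tmem119 and Fcer1g (58.7%) and below for Gpr34 (2.14%). In the brainstem they lay above for 9 genes, all but Gpr34 (76.2%), and below for none (0.442%). For Csf1r the values were 9.35 and 9.73 FPKM in C against 11.8 and 18.2 in Neg in the olfactory bulb, and 25.4 and 76.0 against 1.45 and 0.826 in the brainstem. The groups do not overlap in either region, and their order is opposite.

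The test of this difference was added after the values were seen. By limma none of the 10 genes passed for C minus Neg in the brainstem minus the same in the olfactory bulb (0.00736% of tested genes passed), while 5 had an unadjusted p under 0.05. Trem2 stood at 4.82 ± 0.93 (SE, interval 2.92 to 6.73, adjusted p = 0.0764) and Csf1r at 4.99 ± 1.20 (SE, interval 2.53 to 7.45, adjusted p = 0.254). Cx3cr1, Fcgr3 and Tyrobp followed at 4.05, 3.53 and 3.16. The median of the 10 was 2.83 against 0.85 for all tested genes. Trem2 passed without any filter on low values, with array quality weights and without cortex B replicate 1, and could not be fitted without the 8 libraries of fewer than 5000 genes, since both brainstem Neg libraries are among them. For A minus Neg between brainstem and olfactory bulb (0.00736%) and C minus Neg between cortex and olfactory bulb (0%), none passed and 3 had an unadjusted p under 0.05 in each. The F test of all population by region terms passed none of the 10 (0.0147%), with unadjusted p under 0.05 for Fcgr3, Trem2 and Csf1r (limma adjusted p = 0.597, 0.604 and 0.655). Its terms include B, D and E, whose levels entered the choice of genes.

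A lay below C for all 10 genes, with a median of -0.92 against -0.35 for all tested genes, and none passed by limma (0.00736% of tested genes passed; 2 of the 10 had an unadjusted p under 0.05). Those were Trem2, at -1.80 ± 0.38 (SE, interval -2.58 to -1.03, adjusted p = 0.125), and Tmem119, at -1.53 ± 0.58 (SE, interval -2.71 to -0.35, adjusted p = 0.330). Trem2 was called lower in A without the filter on low values and with array quality weights. The signs of Fcgr3, Gpr34 and Siglech turned in at least 1 of 46 other settings. Between A and Neg none passed (3.04% of tested genes passed), 1 of 10 had an unadjusted p under 0.05, and the median was -0.11 against 0.47 for all tested genes. That gene was Csf1r, at 1.17 ± 0.49 (SE, adjusted p = 0.162), and without the 8 libraries of fewer than 5000 genes it stood at -0.0025. A minus C, A minus Neg and C minus Neg share libraries, so their values are not independent of each other.

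**Figure D4:**
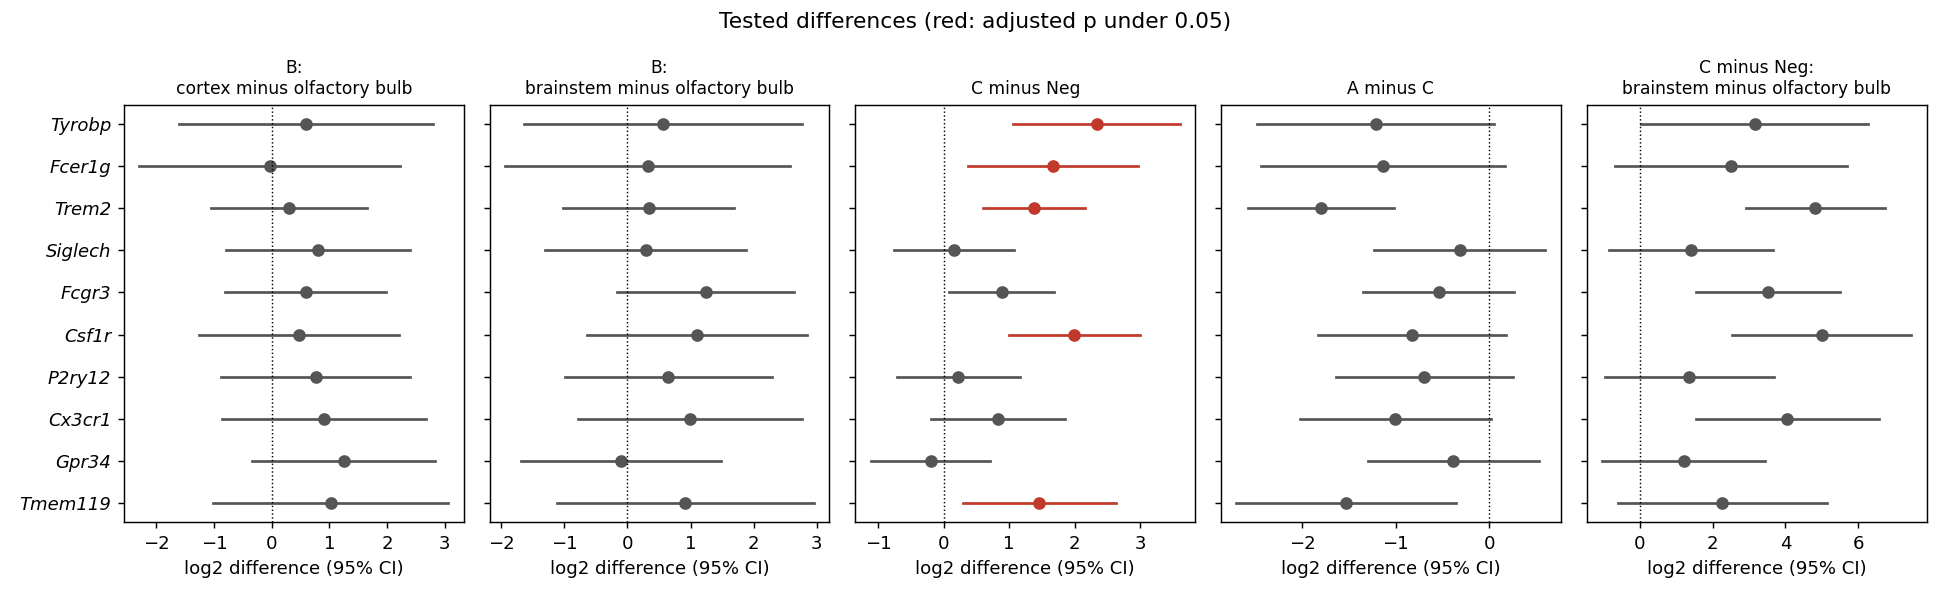
Differences of the 10 genes in 5 comparisons, as log2 difference on the x axis with its 95% interval; red marks an adjusted p under 0.05 by limma. Red appears only in C minus Neg, for Tyrobp, Fcer1g, Trem2, Csf1r and Tmem119, and Trem2 at 4.82 and Csf1r at 4.99 lie farthest from 0 in the last panel.

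The ligands of these receptors were followed in the same libraries. Apoe and Clu, lipoproteins that bind Trem2 and are made mainly by astrocytes, ran from 508 to 1719 and 106 to 728 FPKM in B and from 543 to 1663 and 120 to 872 in C, against 8.01 to 129 and 1.97 to 46.6 in Neg. Both were higher in C than in Neg (4.82 ± 0.60 and 4.90 ± 0.62, SE, limma adjusted p = 6.12e-06 and 7.5e-06), and they held this call in all 46 other settings. Both were also higher in A than in Neg (3.31 ± 0.60 and 3.18 ± 0.62, adjusted p = 0.00505 and 0.00693), a call both lost without the 8 libraries of fewer than 5000 genes (2.42 and 2.18), and Clu also without cortex Neg replicate 2 or cortex A replicate 1. Of the 5 ligands, 3 passed for C minus Neg, where 40.7% of all tested genes did, and 2 for A minus Neg (3.04%), and their median for C minus Neg was 1.60 against 0.82 for all tested genes. The third was Csf1, a ligand of Csf1r.

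Csf1 was measured in B at 10.4 and 8.52 FPKM in the olfactory bulb, 8.87 and 9.90 in the cortex, and 12.9 and 2.49 in the brainstem. In C it ran from 1.73 to 4.96 FPKM, in D from 1.30 to 8.04 and in A from 0.364 to 3.04. In E it ran from 0 to 4.64 FPKM and in Neg from 0 to 0.977. For C minus Neg the difference of Csf1 was 1.60 ± 0.44 (SE, limma adjusted p = 0.00628), where 40.7% of all tested genes passed. The call ended under both rescalings (to equal sums and by quantiles) and without the 8 libraries of fewer than 5000 genes (1.09). Cx3cl1, the ligand of Cx3cr1, ran from 1.24 to 5.97 FPKM in B. Over Neg, A and C it was lower in the brainstem than in the olfactory bulb by -1.69 ± 0.47 (SE, limma adjusted p = 0.0342), a call lost in 17 of 46 other settings. Of the 5 ligands, 1 passed there, where 4.13% of all tested genes did. Il34 stayed at 1.36 FPKM or less and was listed at 0 in all Neg, D and E libraries; it is named here after its values were seen.

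Of the kinases and adaptors downstream, 19 of 21 could be tested. Their summed level ran from 86.7 to 121 FPKM in B, 34.0 to 55.6 in C, 5.88 to 46.0 in A, 3.79 to 40.6 in Neg, 2.81 to 76.4 in D and 3.34 to 27.2 in E. Lyn, a Src-family kinase that phosphorylates ITAMs, ran from 5.11 to 19.0 FPKM in B; Lcp2, the scaffold SLP-76, from 6.89 to 24.1 in B and from 0 to 1.09 in E. Fyn, a Src-family kinase also made by neurons and oligodendrocytes, was at a median of 10.6 in B and 15.6 in C. For C minus Neg, Lyn and Fyn passed (1.48 ± 0.43 and 1.48 ± 0.48, SE, limma adjusted p = 0.00871 and 0.0172) and the other 17 did not, where 40.7% of all tested genes passed, and the list median was 0.39 against 0.82 for all. Both calls were lost under both rescalings and without the 8 libraries of fewer than 5000 genes, and that of Fyn also without cortex Neg replicate 2. Over Neg, A and C, Lyn and Grb2 were lower in the brainstem than in the olfactory bulb (-1.89 ± 0.43 and -1.58 ± 0.43, SE, adjusted p = 0.00874 and 0.0322). They were 2 of the 19 tested genes of this list, where 4.13% of all tested genes passed.

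Lyn differed most visibly in C, where it was measured at 27.3 and 19.9 FPKM in the olfactory bulb, 5.55 and 4.36 in the cortex, and 5.84 and 6.77 in the brainstem. The olfactory bulb values lay above all others in C, although those of Csf1r and Trem2 there were the lowest in C. In B, Lyn was at 16.5 and 19.0, then 11.2 and 15.6, and 12.1 and 5.11 FPKM in the same order of regions. The regional call of Lyn was lost without brainstem A replicate 2 and when its most abundant transcript was used alone, and that of Grb2 in 16 of 46 other settings.

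Of the 10 myeloid transcription factors, B held a summed 47.5 to 141 FPKM, against 25.5 to 31.0 in C, 10.03 to 25.9 in A, 5.08 to 23.8 in Neg, 7.09 to 37.0 in D and 0.835 to 15.4 in E. Spi1, which encodes PU.1, ran from 3.31 to 33.9 FPKM in B and was listed at 0 in all 6 E libraries. For C minus Neg 4 of 10 passed (40.7% of all tested genes), with a list median of 0.74 against 0.82 for all, led by Bhlhe41 (1.45 ± 0.39, SE, limma adjusted p = 0.00505) and Cebpa (1.23 ± 0.38, adjusted p = 0.0123). Both of these calls were lost under both rescalings and without the 8 libraries of fewer than 5000 genes. Mef2c, which neurons also express, was lower in the brainstem than in the olfactory bulb over Neg, A and C (-1.89 ± 0.40, SE, adjusted p = 0.00447). It was 1 of 10 factors to pass there, where 4.13% of all tested genes did. Its call was lost without the 8 libraries of fewer than 5000 genes and when its most abundant transcript was used alone.

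Irf5, an interferon regulatory factor, passed between regions within B. It was the only gene to do so among 5 ligands, 19 signalling genes, 10 transcription factors, 22 other receptors and 18 other microglial genes. It was listed at 0 in both olfactory bulb B libraries, and measured at 6.65 and 3.46 FPKM in the cortex and 7.18 and 24.1 in the brainstem. The brainstem difference from the olfactory bulb was 3.84 ± 0.62 (SE, limma adjusted p = 0.00176), where 0.825% of all tested genes passed. It lost the call in 6 of 46 other settings, among them without brainstem B replicate 2 (3.03, adjusted p = 0.0666), and kept its direction in all of them.

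Among other receptors of myeloid cells, 22 of 24 could be tested, and their sum ran from 145 to 279 FPKM in B, 36.6 to 116 in C, 16.3 to 56.1 in A, 7.59 to 48.0 in Neg, 8.33 to 52.4 in D and 3.56 to 31.6 in E. Sirpa, the receptor of CD47, was at 33.9 to 64.0 in B, P2ry13 at 28.4 to 83.7 and the tetraspanin Cd37 at 12.7 to 34.9, and Cd37 was listed at 0 in all E libraries. For C minus Neg 6 of 22 passed (40.7% of all tested genes), with a list median of 0.43 against 0.82 for all, led by Sirpa (2.52 ± 0.52, SE, limma adjusted p = 0.000753) and the ATP-gated channel P2rx7 (1.64 ± 0.43, adjusted p = 0.00499). Of 18 other microglial genes 5 passed for C minus Neg (40.7% of all tested genes), with a median of 1.01 against 0.82 for all, led by Sparc (2.65 ± 0.51, SE, limma adjusted p = 0.000396) and the complement subunit C1qc (2.46 ± 0.59, adjusted p = 0.00229); Sparc is also made by other brain cells. C1qc ran from 167 to 318 FPKM in B, 14.8 to 119 in C and 0 to 3.85 in E. Of these calls, Sparc held in all settings but quantile normalization, while Sirpa and C1qc were lost under both rescalings and without the 8 libraries of fewer than 5000 genes. The call of P2rx7 was lost under quantile normalization, without those 8 libraries and when its most abundant transcript was used alone.

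Markers of other cell types moved with the 10 genes to different degrees. The 10 markers of border macrophages, which live around vessels and in the meninges, summed to 29.5 to 70.6 FPKM in B, above 1.05 to 19.0 in C, 0 to 14.4 in A, 0.177 to 8.25 in Neg, 0 to 11.8 in D and 0.0622 to 4.02 in E. Pf4 ran from 2.62 to 19.9, Stab1 from 2.46 to 14.03 and Cbr2 from 0.279 to 26.3 FPKM in B, all 10 markers were above 0 in at least 1 B library, and none passed between regions within B. Their part in the levels of Csf1r, Fcer1g, Fcgr3, Tyrobp and Cx3cr1, which such macrophages also express, was not tested. Monocyte and neutrophil markers summed to 0 to 7.04 FPKM in B (median 0.973) and 0.0193 to 14.5 in C, with S100a8 at 0.533 or less in B. Lymphocyte markers summed to 4.65 FPKM or less in B and were listed at 0 in E.

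B was not free of the RNA of other brain cells. The 12 astrocyte markers summed to 1083 to 2882 FPKM in B and 1567 to 3411 in C, against 537 to 1446 in A, 308 to 3580 in D, 199 to 1083 in E and 46.2 to 483 in Neg, and all 12 passed as higher in A than in Neg (3.04% of all tested genes) and in C than in Neg (40.5%). The 10 neuron markers summed to 32.6 to 251 FPKM in B and 60.2 to 602 in E. Oligodendrocyte markers, led by Mbp, summed to 1035 to 4657 FPKM in B and 1950 to 7171 in Neg, and endothelial and mural markers to 69.1 to 228 in B and 1.24 to 39.2 in E. The label astrocyte thus stands beside astrocyte markers that were above 0 in every population, and beside microglial genes such as C1qc (167 to 318 FPKM in B), whose level was of the same order as those of the astrocyte genes Slc1a2 (171 to 1063 FPKM) and Aldoc (169 to 480).

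**Figure D5:**
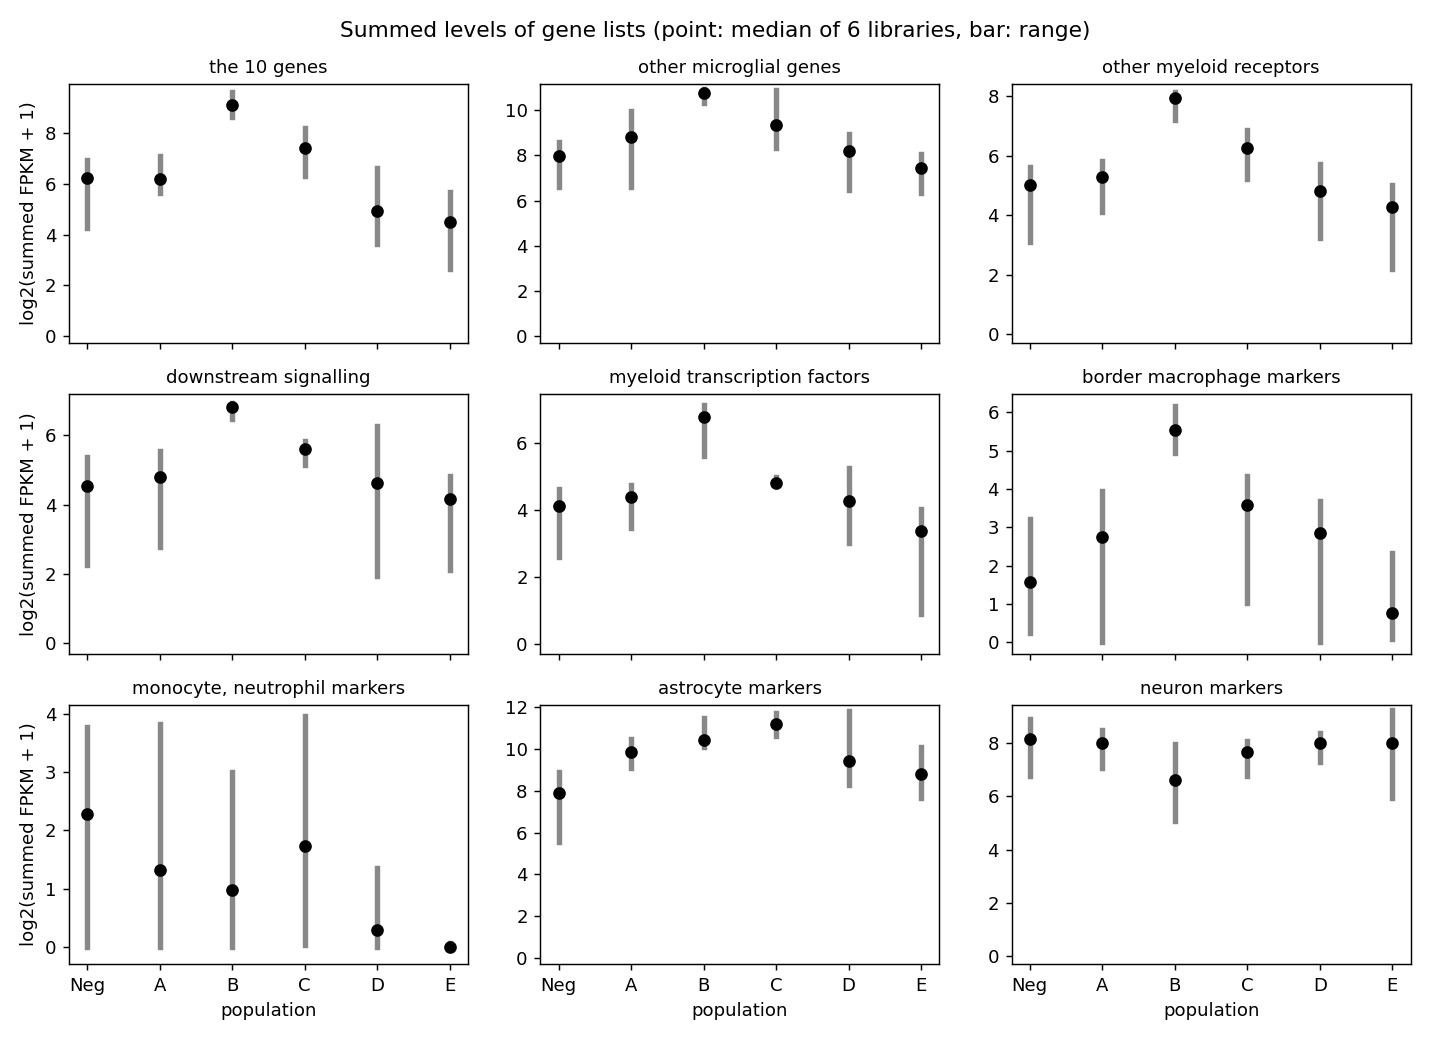
Summed FPKM of 9 gene lists as log2(sum + 1) by population; the point is the median of 6 libraries and the bar their range. The B bar lies above all others for the 10 genes, other myeloid receptors, downstream signalling, myeloid transcription factors and border macrophage markers, while its neuron markers have a median of 97.6 FPKM before the log, below the medians of the other populations.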

How the data were processed

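The 36 deposited tables hold 1 library each. RNA was extracted with a NucleoSpin kit, amplified with NuGEN Ovation V2 from random and poly d(T) primers without strand, and sequenced on an Illumina instrument, per the labels' protocols. FPKM values were made by the authors with bcl2fastq 1.8.3, TopHat and Cufflinks, per the submitters' processing notes (with no version named for the last 2), on 63241 UCSC transcripts in mm10 coordinates, per the file headers. The deposited coverage column, also from Cufflinks, was used as a guide to depth only, since read counts were not used here. Of the transcripts, 52543 (83.1%) were assigned by locus to a GENCODE vM21 gene, which placed 89.5% to 96.7% of nuclear FPKM per library, and FPKM was summed per gene. No library pair was identical.

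Genes with at least 1 FPKM in 2 libraries were tested on log2(FPKM + 1) values (R 4.3.3, limma 3.58.1). The model had 18 group means, an intensity trend in the variance, 18 residual degrees of freedom and Benjamini-Hochberg adjustment over all 13578 genes at 0.05. All differences refer to log2(FPKM + 1), a scale that makes the changes of low genes too small. The model was tested on simulated data with 200 changed genes, where the A minus C comparison recovered 77.0% of genes changed by 2 on the log2 scale. Alternatives were another pseudocount (0.1), no filter, rescaling to a sum of 1000000, quantile normalization, array weights, the most abundant transcript alone, fewer populations or libraries, the title numbers as a covariate, and each library left out.

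The 10 genes and all gene lists were chosen with earlier results of these data known. Genes of other lists are named if they are among the 3 with the highest mean or the next 3 called genes by adjusted p; other names are said to be chosen after their values were seen. A few genes that these rules name are not reported here. Replicate numbers follow accession order and pair nothing.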

Additional observations from a re-analysis of the deposited data

Results flagged for a closer look

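In 60 sets of 6 libraries (10 genes in 6 populations), 6 held a library that stood apart from the other 5 by Dixon's test at the 95% level. Chance flags about 1 in 20 groups of continuous values, a rate that does not apply where values are listed at 0 or where low values chose the genes, as in D and E, which hold 4 of the 6. Trem2 was at 0.314 FPKM in cortex E replicate 1 and listed at 0 in the other E libraries. Tyrobp was at 8.93 FPKM in olfactory bulb A replicate 1, below an A median of 20.1. Fcer1g gave 3 of the 6: it was at 0.215 FPKM in brainstem Neg replicate 2 (Neg median 16.7), listed at 0 in cortex D replicate 2 (D median 13.5), and at 10.4 FPKM in the library labelled cortex E replicate 2, with the other E libraries listed at 0. Fcgr3 was at 1.27 FPKM in olfactory bulb D replicate 2, above a D median of 0.0671.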

How the results depend on the processing

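Between C and Neg, the count of the 10 genes called was 5, and it was 0 after rescaling to equal FPKM sums, 2 under quantile normalization (P2ry12 and Gpr34, both lower), 3 with no filter on low values and 0 without the 8 libraries of fewer than 5000 genes, where olfactory bulb and cortex alone are averaged. With 1 library left out it ran from 3 to 5, with 3 without cortex Neg replicate 2, brainstem Neg replicate 2, olfactory bulb C replicate 1, cortex C replicate 1 or 2, or brainstem C replicate 2. Where no gene was called, single alternatives called 1: P2ry12 for cortex minus olfactory bulb over Neg, A and C under quantile normalization, Trem2 for A minus C with no filter or with array weights, and Csf1r for A minus Neg with array weights or with only the compared populations. For C minus Neg in the brainstem minus the olfactory bulb, 1 was called with no filter, 4 with array weights, and 0 to 1 with 1 library left out. The median of B minus mean of A, C, D and E was 2.668 under quantile normalization and 3.894 with a pseudocount of 0.1, that of D minus mean of A, B, C and E was -1.969 after rescaling and -1.979 with a pseudocount of 0.1, and that of E minus mean of A, B, C and D was -0.9603 under quantile normalization and -2.607 with a pseudocount of 0.1. With 1 library left out these medians ran from 3.105 to 3.364, from -1.754 to -1.051 and from -2.049 to -1.459. Signs turned for Csf1r in A minus Neg (-0.002535) and Laptm5 in C minus Neg (-0.07025) without the 8 libraries, and for Fyn in C minus Neg after rescaling (-0.01375); the cause was not tested. No paired analysis was possible because the labels give no replicate numbers that link libraries across groups. The lowest ratios of coverage to FPKM, 0.0695 and 0.315, were those of 2 E libraries.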
